A study of Homo sapiens with 6 samples.

Results

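The RBM genes encode proteins named for an RNA-binding motif, and RBM12, a nuclear member, was the gene depleted in every sample. The family was taken as every gene whose symbol is RBM followed by a number and optional letters, with no hyphen. This gave 35 of the 19823 genes in the table, and all 35 passed the filter on low counts that left 18130 genes for testing. The samples were glutamatergic excitatory neurons (iNeurons), made from the human pluripotent stem cell line WTc11 by inducing an NGN2 transgene. All 6 samples carried the RBM12 knockdown, made by CRISPR interference (CRISPRi), in which a dead Cas9 fused to a repressor is guided to a promoter. The groups were 3 untreated samples and 3 given isoproterenol. Isoproterenol is an agonist of the β2-adrenergic receptor, and its dose and duration are not in the labels of these samples. No sample without the knockdown was analysed here, so the extent of RBM12 depletion could not be measured. The labels do not say whether replicates came from separate differentiations, so the spread between them may be technical.

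Many proteins of the RNA-binding motif family bind RNA through RNA recognition motifs. Members act at most steps of the life of an mRNA, from splice site choice and m6A deposition to export, decay and ribosome assembly. In neurons such proteins shape the alternative splicing and local translation that synapses depend on. Isoproterenol raises cAMP through the β2-adrenergic receptor, and cAMP activates protein kinase A, which phosphorylates the transcription factor CREB. CREB binds the cAMP response element (CRE), whose consensus is TGACGTCA.

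The recovered read totals were 18116816 to 21488793 per sample. All 11 listed glutamatergic and general neuronal markers were measured, with a summed level of 678850 to 724999 normalized counts in the untreated and 663206 to 680126 in the isoproterenol samples, although TUBB3 was only at 69 to 94. Of the 11, NEFL, a neurofilament subunit and the most abundant of them, passed a false discovery rate (FDR) of 0.05 in limma with replicate number as a block, being lower without overlap (284314 to 294712 untreated and 275114 to 283871 with isoproterenol; log2 fold change -0.05, adjusted p = 0.000268 with the block and 0.654 without), and its part in the results given here was not tested. Of 5 GABAergic markers 3 were in the table, with a summed level of 55.3 to 60.0 untreated and 66.9 to 79.0 with isoproterenol. Of 5 astrocyte markers 2 were present (160 to 175 and 134 to 157), with GFAP, SLC1A3 and ALDH1L1 not in the table, and of 4 oligodendrocyte markers 3 (1047 to 1090 and 1101 to 1171), mostly MBP. These 3 sums did not overlap between the groups, no gene of these 3 lists passed FDR 0.05 in limma with or without the block, and their part in the results given here was not tested. The pluripotency markers (3 of 6, 15.4 to 28.8) and proliferation markers (1 of 5, 112 to 147) were low in every sample. The immediate early genes FOS, FOSB, NR4A1, NPAS4 and ARC, a check of the treatment, summed to 784 to 1004 untreated and 1822 to 4020 with isoproterenol. Without the block 0 of these 5 passed FDR 0.05 in limma, although FOSB had a log2 fold change of 4.39 (adjusted p = 0.273). With the block 4 passed, all but NR4A1 (log2 fold change 2.28, limma adjusted p = 0.119). As bulk RNA was measured, fewer cells and less RNA per cell cannot be told apart.

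RBM12 (ENSG00000244462) lies on chromosome 20 at 35648925 to 35664956 of GRCh38, on the minus strand, and shares its start with CPNE1, a calcium-dependent membrane-binding protein. The RefSeq promoter windows of both genes, 250 bases before to 50 bases from the start, were the same 300 bases. The CRISPRi guide and the genomic sequence it targets are shown because they place the knockdown at this shared start, with the PAM of the target in capitals.
RBM12 guide: gaggaggtggtggctgcgtt
RBM12 target, chr20:35664862-35664884, minus strand: aaggaggtggtggctgcgttGGG
The guide differed from the target by G1A, counted from 1 at the 5′ end of the guide. Bases 2 to 20 followed by NGG had 1 match in the genome. Counting the RefSeq start base as 0, the target with its PAM spanned bases 16 to 38, within untranslated exon sequence of 4 RBM12 and 9 CPNE1 protein-coding transcripts in GENCODE 44. No sample with another guide was analysed here, so whether the guide altered CPNE1 was not tested.

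Of the 35 members, 31 had a RefSeq promoter (GRCh38.p14). The full motif TGACGTCA, which reads the same on both strands, was present in 3 of these 31 (9.68%) and in 641 of all 34796 distinct promoters of that length (1.84%). Members were counted by gene and the background by distinct promoter, whether or not its gene was tested here, so the shares differ in unit. The 3 matches are shown with 11 bases on each side, since they are the members whose promoter holds the complete CRE letters, given in capitals.
RBM12, chr20:35664945-35664974, minus strand: gcgcggcccctTGACGTCAaccacgccgtt
RBM18, chr9:122264853-122264882, minus strand: cgcggacgtcgTGACGTCAcgaagccagga
RBM42, chr19:35629001-35629030, plus strand: gcccgaatgtaTGACGTCAtgcgccagcgc
The motif spanned bases -63 to -56 from the RefSeq start in RBM12, -31 to -24 in RBM18 and -24 to -17 in RBM42. The outermost GENCODE 44 start of RBM12 fell on the last base of its motif. The shorter motif TGACG or its reverse complement CGTCA, which the full motif contains, was in 8 of the 31 members (25.8%) against 24.5% of all promoters. A match of letters says nothing of binding in these cells.

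**Figure D1:**
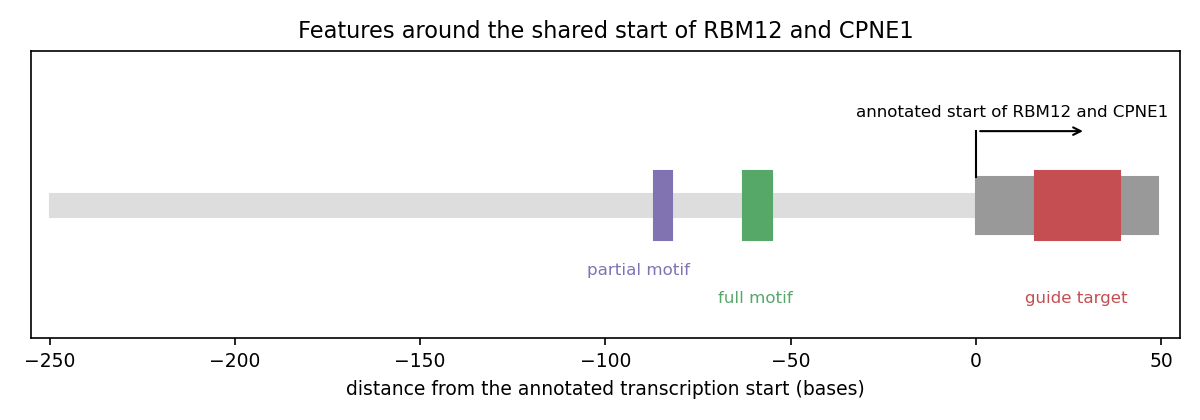
Features around the shared RefSeq start of RBM12 and CPNE1, with distance from the start base in bases on the x axis; the light bar is sequence before the start and the dark bar sequence after it. The full CRE motif lies at -63 to -56, a partial motif at -87 to -83 and the guide target with its PAM at 16 to 38.

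The levels of the members were compared per kilobase of merged exons (GENCODE 44), in the untreated samples. RBM8A, the exon junction complex subunit also called Y14, was highest, at 663 ± 26.7 normalized counts per kilobase (SD, n = 3). It was followed by RBM42, a spliceosome-associated protein (413 ± 12.8), the splicing regulators RBM10 (380.4 ± 13.1) and RBM6 (366 ± 19.9), and RBM22, a core component of the active spliceosome (328 ± 11.9). The lowest were RBM44, best known from germ cells (5.37 ± 0.886), the nucleolar RBM34 (6.66 ± 1.93), RBM20, which regulates titin splicing in heart (18.8 ± 1.75), RBM24, a muscle splicing regulator (20.5 ± 2.53), and RBM48, a minor spliceosome factor (36.1 ± 2.23). The mean levels spanned 124-fold. Of these 5 lowest members, 3 are known mainly for restricted tissues. The order depends on the length used. Per kilobase of the longest annotated transcript RBM8A stayed at rank 1, while RBM6 ranked 2, RBM42 3, RBM10 8 and RBM48 23. By that length RBM12 ranked 31 of 35, among the 5 lowest in place of RBM48. In all, 20 members exceeded the median of all tested genes with a length, 61.2 normalized counts per kilobase.

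Of the 34 neighbouring pairs in the order by merged exons, 14 did not overlap in their 3 untreated values and 20 did. Such overlap reflects the spread between samples and not the choice of length. RBM8A stood clear of RBM42, and RBM42 of RBM10. RBM10 and RBM6 overlapped, as did each step from RBM4 down to RBM48, which includes RBM12. The replicate spread was small, with a median coefficient of variation of 5.43% in the untreated and 6.01% in the isoproterenol samples.

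RBM12 itself stood at 39.3 ± 2.60 normalized counts per kilobase in the untreated and 33.1 ± 3.52 in the isoproterenol samples (SD, n = 3). It ranked 28 of 35 by the untreated mean, between RBM11 and RBM7, and 27 to 28 in the single untreated samples. Its untreated range overlapped those of 9 other members, while 21 members lay wholly above it and 4 wholly below. In the isoproterenol samples it ranked 28 to 31. Its level was at percentile 41.1 of the tested genes, so RBM12 transcripts were still measured at 195 to 288 reads per sample. RBM12B, its closest relative by name and a protein of the same kind whose function is little known, stood at 81.1 ± 2.76 normalized counts per kilobase, 2.06 times the level of RBM12. CPNE1 stood at 20.2. Of the exonic bases of RBM12, 575 of 6702 are shared with CPNE1 on the same strand, and 7.05% of its 75-base words occur in another gene, so reads there could be assigned to either gene or to none. RBM12B shares 42.7% of such words, mostly with CIBAR1 on the opposite strand, and whether counting used the strand is not given in the sources used here.

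**Figure D2:**
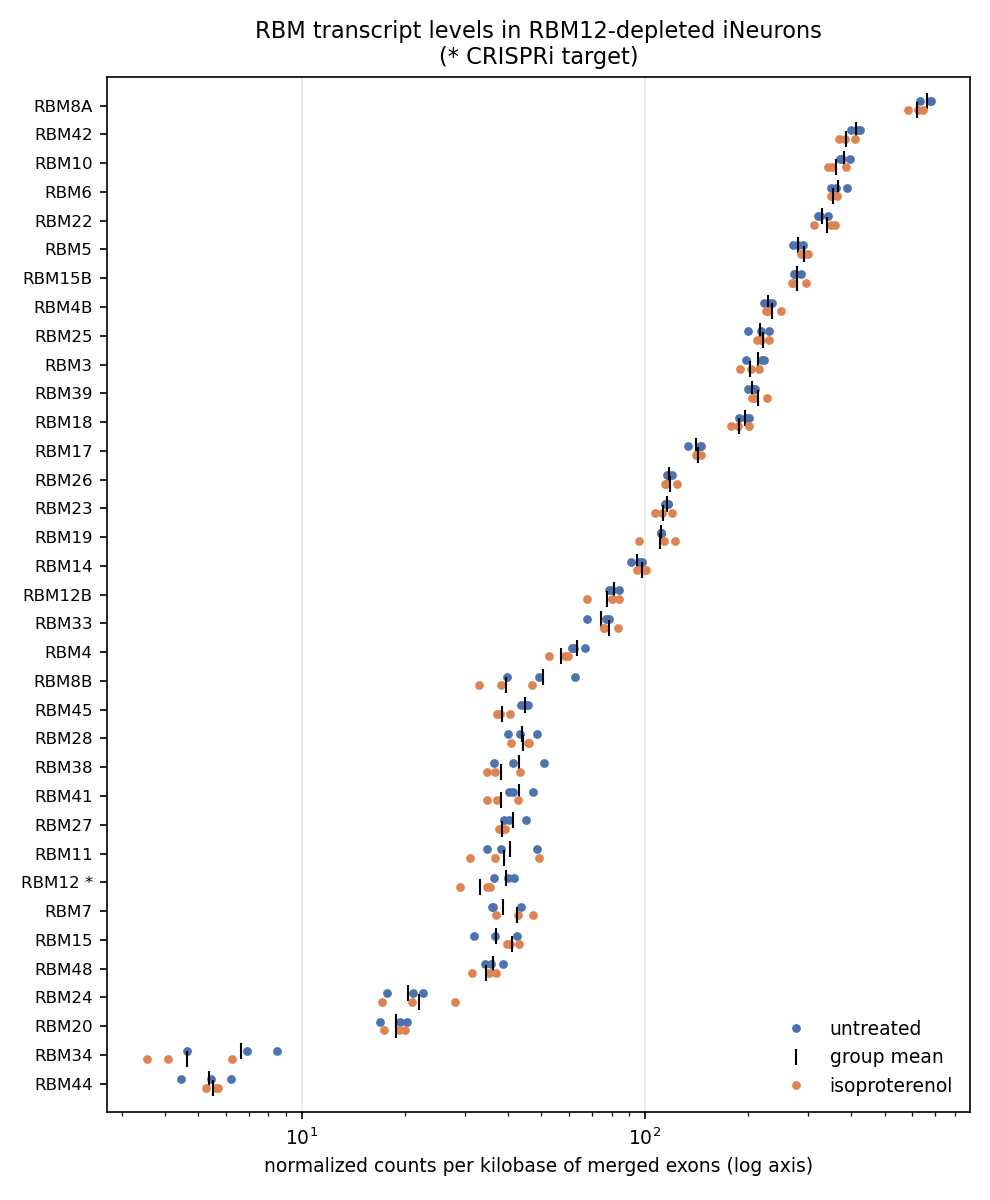
Normalized counts per kilobase of merged exons (x, log axis) of the 35 members, ordered by untreated mean, with 1 point per sample and group means as vertical marks. RBM8A stands at the top at 663 and RBM44 at the bottom at 5.37, and RBM12 is the CRISPRi target at 39.3.

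The comparison of isoproterenol with untreated neurons asks whether receptor activation altered transcripts of the family in neurons that carry the RBM12 knockdown. RBM12 was at 244, 279 and 267 normalized counts in the untreated samples (in the order of their replicate numbers, as throughout) and at 195, 238 and 233 with isoproterenol. All 3 isoproterenol values lay below all 3 untreated values. The group means were 263 ± 17.4 and 222 ± 23.6 (SD, n = 3), and the mean was lower by 15.8 percent. The log2 fold change was -0.25 (SE 0.11, 95% interval -0.48 to -0.021), and the limma p of 0.0337 became an adjusted p of 0.607 over all genes tested. With the block the interval was -0.44 to -0.059, and the limma p of 0.0111 became an adjusted p of 0.131. The log2 ratios within same-numbered pairs were -0.33, -0.23 and -0.20, and the exact permutation test of the 2 groups (two-sided) gave p = 0.1, the smallest it allows with 3 against 3. Over 20 alternative settings the log2 fold change ran from -0.30 to -0.16 and the adjusted p from 0.124 to 0.986, so the difference did not pass FDR 0.05 in any of them. CPNE1, which shares the promoter window, was at 63.7, 62.9 and 92.1 untreated and at 70.8, 56.5 and 94.4 with isoproterenol. Its groups overlapped, and its log2 fold change was 0.01 (95% interval -0.43 to 0.45; limma adjusted p = 0.995).

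RBM12B was at 708, 742 and 695 normalized counts untreated and at 741, 709 and 597 with isoproterenol. Its groups overlapped, and the pairs ran in both directions (0.07, -0.07 and -0.22). The log2 fold change was -0.07 (95% interval -0.24 to 0.091; limma adjusted p = 0.874), and it turned to 0.02 without isoproterenol replicate 3. The interval without the block leaves room for a change of RBM12B as large as 0.24 downward, close to the value of RBM12. With the block the interval was -0.19 to 0.045 (limma adjusted p = 0.613).

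Across the family, 0 of 35 members passed FDR 0.05 in limma without a replicate block, where 0.0165% of all tested genes passed. That fit also called 0 of the 5 immediate early genes, so a missing call in it does not show that a gene was unchanged. At an unadjusted p under 0.05 there was 1 member, RBM12 (2.86%), against 7.68% of tested genes. edgeR and DESeq2 without the block each called 0 members, against 0.0165% and 0.116% of tested genes. With replicate number as a block, limma called 1 member (2.86%), RBM8A, which was lower, against 4.88% of all tested genes in either direction and 2.06% lower. At an unadjusted p under 0.05 the blocked fit had 5 members (14.3%), RBM12, RBM45, RBM41, RBM4 and RBM8A, all lower, against 16.2% of tested genes in either direction and 7.45% lower. DESeq2 with the block called 0, against 0.789% of tested genes, and edgeR with the block called 1, against 5.39%. In either direction the members were thus called no more often than tested genes at large by limma or edgeR.

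RBM8A (ENSG00000265241, chromosome 1, 145921556 to 145927678, minus strand) binds spliced mRNA with MAGOH as part of the exon junction complex. It was at 3622, 3601 and 3366 normalized counts untreated and at 3453, 3331 and 3121 with isoproterenol. The groups overlapped, but each isoproterenol sample was below the untreated sample of its number. The log2 ratios within pairs were -0.07, -0.11 and -0.11, and the fitted log2 fold change was -0.10 (SE 0.049). The adjusted p was 0.658 in limma without the block and 0.0422 with it, and 0.0233 in edgeR and 0.632 in DESeq2 with the block. Of its 75-base words 21.5% occur in another gene. With any single pair left out of the blocked limma fit the call was lost, at adjusted p of 0.0899 to 0.25. RBM8B, annotated as a processed pseudogene, was at 17.3 to 32.9 in the 6 samples and shares 28.4% of its 75-base words with RBM8A.

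Besides RBM12, 2 members had all 3 isoproterenol values below all 3 untreated values, RBM45 and RBM4, and none had all 3 above. Together these 3 are 8.57% of the members, where 6.19% of all tested genes were lower and 6.73% higher without overlap. RBM45 (ENSG00000155636, chromosome 2), a protein of the nucleus known from inclusions in motor neuron disease, was at 214, 209 and 218 untreated and at 181, 194 and 177 with isoproterenol. Its log2 fold change was -0.22 (95% interval -0.44 to 0.011, limma adjusted p = 0.658), and it shares no exonic base with another gene. With the block the interval was -0.43 to -0.0044 (limma adjusted p = 0.295). RBM4 (ENSG00000173933, chromosome 11), a regulator of alternative splicing and translation, was at 402, 437 and 408 untreated and at 344, 389.8 and 384 with isoproterenol. Its log2 fold change was -0.16 (95% interval -0.34 to 0.020, limma adjusted p = 0.683). With the block the interval was -0.31 to -0.0065 (limma adjusted p = 0.280). The value of RBM4 is uncertain, because 29.5% of its 75-base words occur in the readthrough gene RBM14-RBM4, in RBM4B or elsewhere. The paralog RBM4B had a log2 fold change of 0.03, and RBM14, a paraspeckle protein encoded beside them, 0.05.

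**Figure D3:**
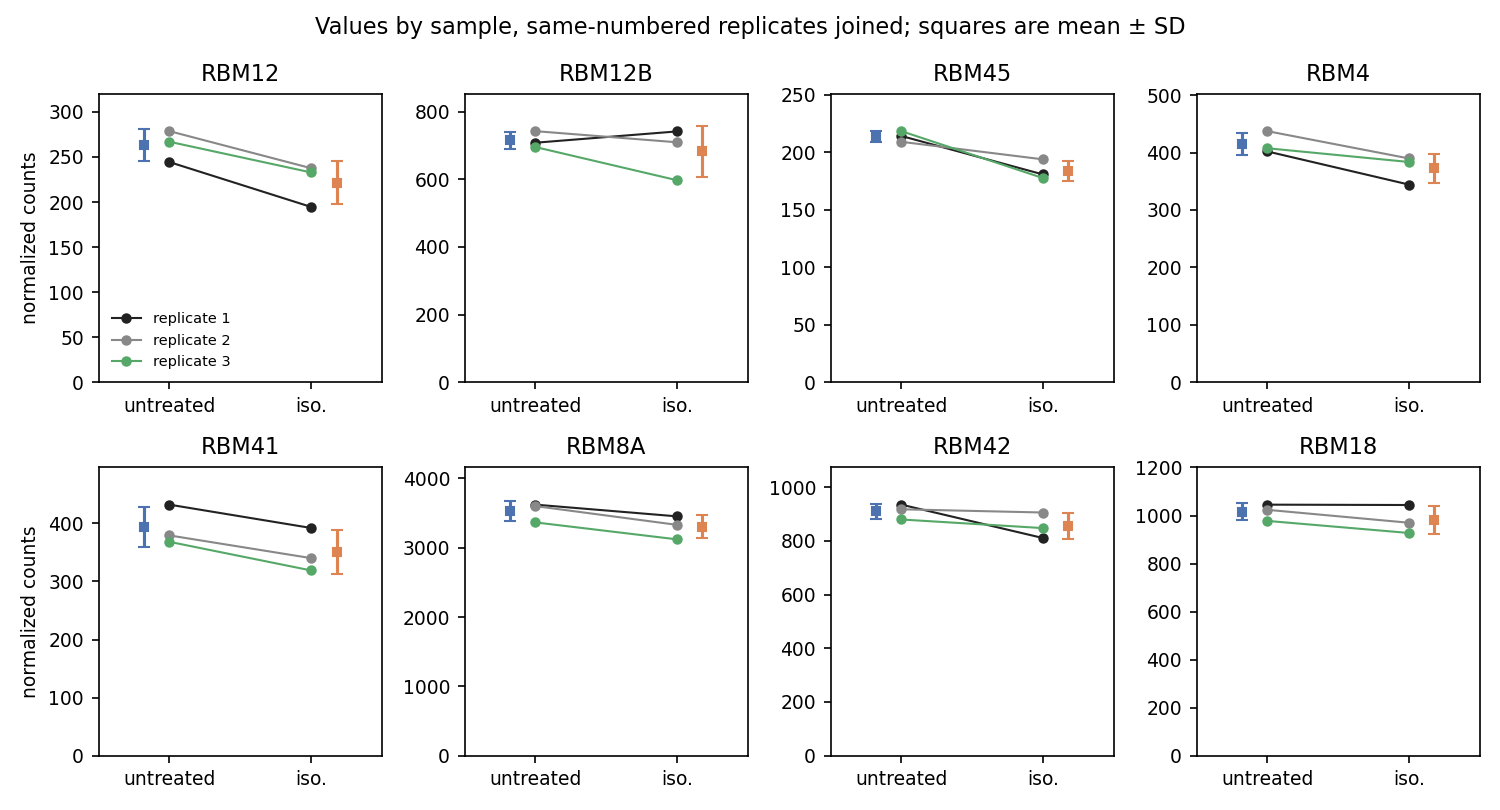
Normalized counts (y, from 0) of 8 members in each sample, with same-numbered untreated and isoproterenol replicates joined by a line and group means ± SD (n = 3) as squares. The RBM12 lines all slope down, from 244 to 279 untreated to 195 to 238 with isoproterenol, while the RBM12B lines run both ways.

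Within pairs, 12 members (34.3%) were lower with isoproterenol in all 3, where 17.6% of tested genes were, and 3 members (8.57%), RBM5, RBM14 and RBM15, were higher in all 3, where 18.5% of tested genes were. The 12 were RBM8A, RBM42, RBM10, RBM3, RBM18, RBM4, RBM8B, RBM45, RBM41, RBM27, RBM12 and RBM34. The shift behind this count was small. The median log2 fold change of the 35 members was -0.038, against 0.0015 for all tested genes, and in the pairs it was -0.040, -0.019 and -0.040. Without isoproterenol replicate 3 the median came to -0.0020. By fitted sign 19 members were lower (54.3%), against 49.5% of tested genes, and 25 members had a log2 fold change within 0.1 of 0.

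**Figure D4:**
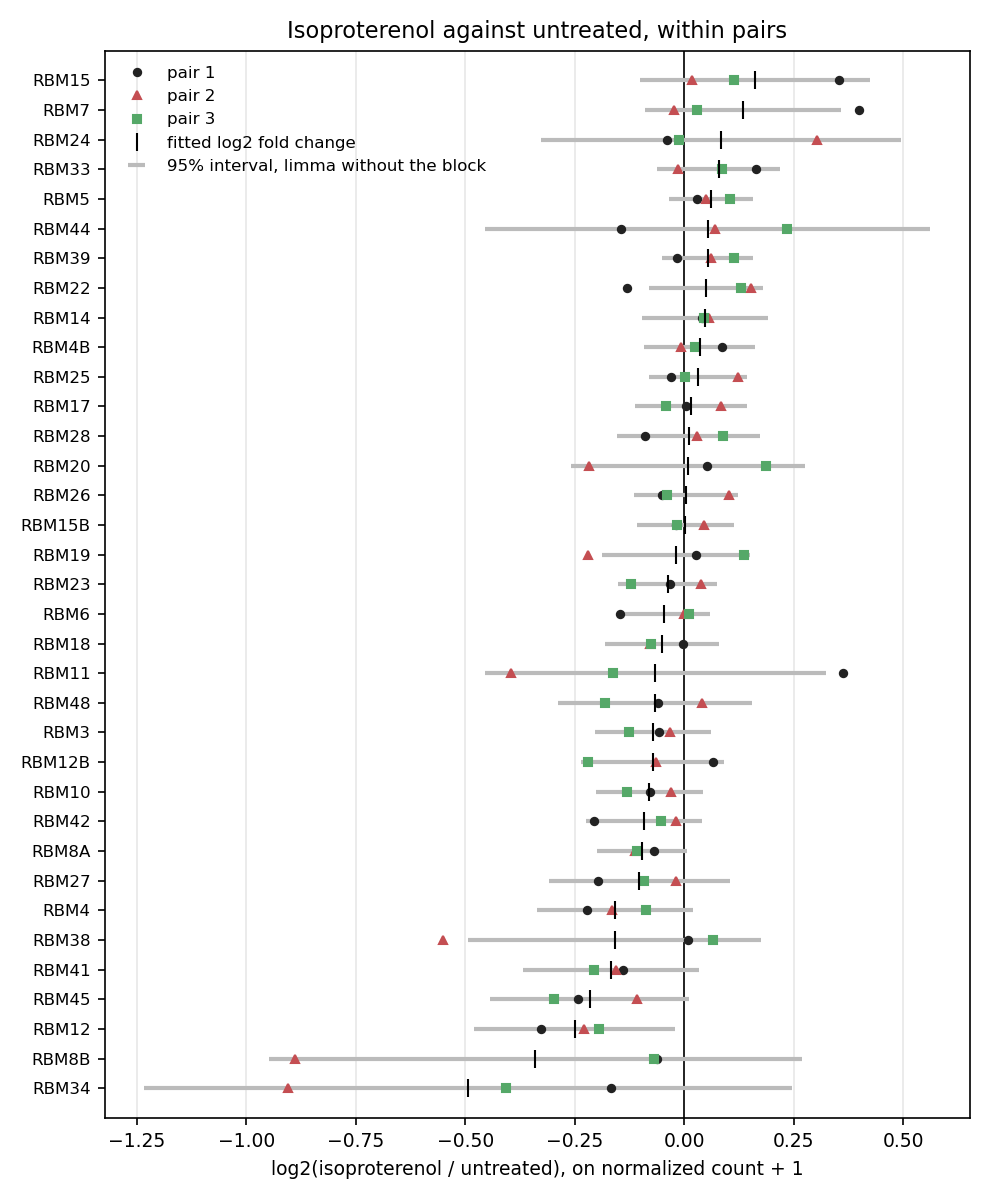
Log2 ratio of isoproterenol to untreated normalized counts plus 1 (x) for each member, with 1 symbol per same-numbered pair, the fitted log2 fold change as a vertical mark and its 95% limma interval without the block as a grey line. Of the 35 members, 12 have all 3 symbols left of 0 and 3 have all right of it. Of these intervals without the block only that of RBM12 (-0.48 to -0.021) leaves out 0. With the block, not drawn, those of RBM45, RBM41, RBM4 and RBM8A leave out 0 as well.

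By role, the 11 members of splice site choice and the spliceosome had 6 lower and 5 higher by sign, with a median log2 fold change of -0.038. None passed FDR 0.05 in limma with or without the block. RBM41, a minor spliceosome protein, was at 432, 379 and 368 untreated and 392, 340.2 and 319 with isoproterenol. It was lower within every pair (-0.14, -0.16 and -0.21) while the groups overlapped. Its log2 fold change was -0.17 (95% interval -0.37 to 0.034, limma adjusted p = 0.713). With the block the interval was -0.32 to -0.011 (limma adjusted p = 0.258). RBM42 was at 879 to 935 untreated and 810.2 to 905 with isoproterenol, with a log2 fold change of -0.09 (95% interval -0.23 to 0.040). RBM5, a splicing regulator of apoptosis genes, was at 2804 to 2993 untreated and 2951 to 3096 with isoproterenol, with a log2 fold change of 0.06 (95% interval -0.035 to 0.16). The others of this role, RBM6, RBM10, RBM17, RBM22, RBM23, RBM25, RBM39 and RBM48, ran from -0.08 to 0.05 in log2 fold change.

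The adaptors of the m6A writer complex were RBM15 and RBM15B. RBM15 was at 148, 198 and 171 untreated and at 190, 201 and 185 with isoproterenol, the largest log2 fold change upward among the members, at 0.16 (95% interval -0.10 to 0.42; limma adjusted p = 0.80). Its groups overlapped. RBM15B had a log2 fold change of 0.00 (95% interval -0.11 to 0.11). Among the adaptors of nuclear RNA decay, RBM7, a subunit of the nuclear exosome targeting complex, had a log2 fold change of 0.13, RBM26 of 0.00 and RBM27 of -0.10. RBM27 shares 43.1% of its 75-base words with an overlapping gene on the same strand.

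Among the nucleolar members, which serve ribosome assembly, RBM19 was at -0.02 and RBM28 at 0.01 in log2 fold change. RBM34 was at 13.6, 20.3 and 24.8 untreated and at 11.97, 10.4 and 18.5 with isoproterenol. This was the largest log2 fold change downward, -0.49, with a 95% interval of -1.23 to 0.25. It rested on 9 to 24 reads per sample, and 42.9% of the 75-base words of RBM34 occur in another gene, mostly ARID4B. RBM3, whose mRNA is induced by cold, was at 1153 to 1301 untreated and 1107 to 1254 with isoproterenol, with a log2 fold change of -0.07 (95% interval -0.21 to 0.060). RBM11, RBM20, RBM24, RBM38 and RBM44 were grouped because most of them are known from restricted tissues. Of these, 3 were higher and 2 lower by sign, with log2 fold changes of -0.16 to 0.08 and 26 to 172 reads per sample, and none passed FDR 0.05. RBM18 and RBM33, whose roles are less settled, had log2 fold changes of -0.05 and 0.08.

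The 3 members with the complete CRE letters in their promoter, RBM12, RBM18 and RBM42, were each lower in all 3 pairs, as were 34.3% of the members and 17.6% of tested genes. None of the 3 passed FDR 0.05 in limma with or without the block, and 3 genes are too few to relate motif and direction. For RBM18 the ratio of pair 1 was -0.0021, so its count rests on a difference near 0.

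The partners of these proteins were described with 7 lists holding 57 measured genes. In limma without the block 0 passed FDR 0.05, and with it 4 did (7.02%), against 4.88% of tested genes. Of these 1 was higher (1.75%, against 2.82%) and 3 were lower (5.26%, against 2.06%). In edgeR with the block 7 passed (12.3%, against 5.39%), and in DESeq2 with the block 0 (against 0.789%). By sign 34 were lower and 23 higher, with a median log2 fold change of -0.014. The groups did not overlap for 5 that were lower (8.77%, against 6.19% of tested genes), UPF3B, YTHDC1, MTREX, PUF60 and RBMX2. They did not overlap for 1 that was higher (1.75%, against 6.73%), SMG1. The block changed the adjusted p of the called genes and not their log2 fold change. SMG1, the kinase that phosphorylates UPF1 in nonsense-mediated decay, was called higher with the block. It was at 3145, 2870.0 and 3108 untreated and 3485, 3241 and 3188 with isoproterenol, without overlap (log2 fold change 0.12, limma adjusted p = 0.00976 with the block and 0.596 without). UPF3B, which links the exon junction complex to UPF1 and UPF2, was called lower with the block. It was at 665, 617 and 633 untreated and 507, 573 and 573 with isoproterenol (log2 fold change -0.21, limma adjusted p = 0.031 with the block and 0.495 without). The other 8 of this list, among them the RBM8A partners MAGOH and EIF4A3, had log2 fold changes of -0.09 to 0.04.

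YTHDC1, the nuclear reader of m6A, was called lower with the block. It was at 1975, 1949 and 2041 untreated and 1715, 1914 and 1794 with isoproterenol (log2 fold change -0.14, limma adjusted p = 0.0158 with the block and 0.555 without). The m6A writers METTL3, METTL14 and WTAP had log2 fold changes of -0.05, -0.07 and 0.06. MTREX, the helicase that works with RBM7 in nuclear exosome targeting, was called lower with the block. It was at 1788, 1788 and 1737 untreated and 1635, 1669 and 1553 with isoproterenol (log2 fold change -0.13, limma adjusted p = 0.0334 with the block and 0.582 without). With 1 pair left out of the blocked fit, each of these calls was lost at least once, SMG1 without pair 1 or pair 2, UPF3B without pair 1 or pair 3, YTHDC1 without pair 1 or pair 3, and MTREX without any of the 3. None of the 9 measured minor spliceosome genes, 10 genes of 3′ splice site recognition, 5 paraspeckle genes or 7 other RBM-named relatives passed FDR 0.05 in limma with or without the block. In edgeR with the block 0 minor spliceosome genes passed. There 1 gene of 3′ splice site recognition (10%), 1 paraspeckle gene (20%) and 1 other RBM-named relative (14.3%) passed, against 5.39% of tested genes. The largest difference upward over the lists, 0.54 for U2AF1, rested on 5.2 to 25.9 normalized counts, and U2AF1 has a near-identical copy in GRCh38, so its value is uncertain.

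**Figure D5:**
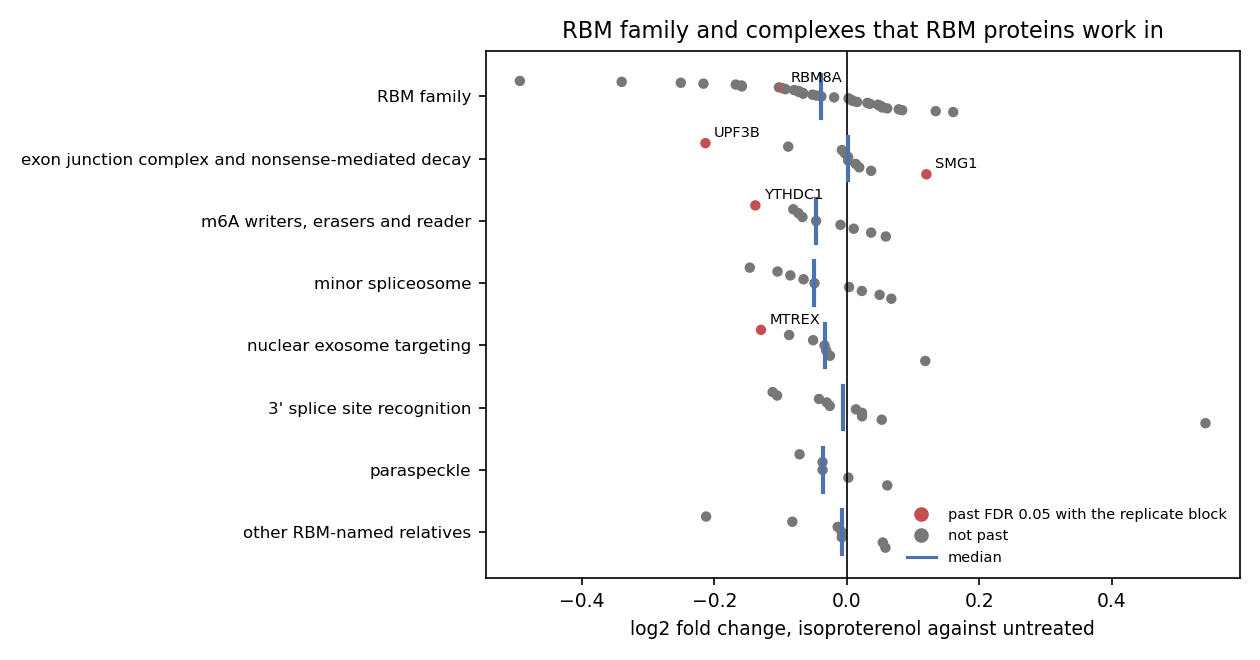
Fitted log2 fold change (x) of the family and of 7 partner lists (y), with 1 point per tested gene, red where the gene passed FDR 0.05 in limma with the replicate block, and a blue bar at each list's median. RBM8A, UPF3B, SMG1, YTHDC1 and MTREX are the 5 red points, and the family median is -0.038.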

How the data were processed

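The RNA-seq libraries were made from poly(A) RNA, and the authors aligned reads to GRCh38 with STAR and counted them with featureCounts (Subread). Versions, annotation release and strand setting are not given in the sources used here. The values the authors deposited are a signal, the reads of a gene divided by 1 DESeq2 size factor per sample, called normalized count here. Every value above 0 was a whole multiple of a step in its column (100% within 0.01 reads), which gave back whole reads.

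Genes with more than 5 reads in at least 4 samples were tested, the filter of the study's methods; 1693 genes were removed. The test was limma 3.58.1 (R 4.3.3, intensity trend, robust, two-sided) on log2(normalized count + 1), with Benjamini-Hochberg adjustment over 18130 genes. The added 1 understates changes of low genes. edgeR 4.0.16 and DESeq2 1.42.0 were run on the recovered reads as alternatives, and the scripts were tested on simulated data. Groups and replicate numbers came from the sample titles. Over 11587 genes, the deviations from the group mean correlated at 0.269, 0.493 and 0.388 between untreated and isoproterenol samples of replicates 1, 2 and 3. As each exceeded 0.1 the numbers were used as pairs, in the ratios within pairs and in the fits with the block. The main fit had no block and so did not use the pairs. Intervals and adjusted p-values are from it unless the block is named. A fit with replicate number as a block is printed where it changes a call, and for RBM12, RBM12B, RBM45, RBM4 and RBM41.

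Lengths and overlaps came from GENCODE 44, which held all 35 members, and promoters from RefSeq. The members and lists were chosen with earlier results of these data known. Values are given for RBM12, RBM12B, members past FDR 0.05 or without overlap, the 5 highest and 5 lowest per kilobase, and of the partner lists those past FDR 0.05 and the largest rise and fall. RBM43, RBM46, RBM47 and CENATAC were not analysed here. No numeric column was left unused.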

Additional observations from a re-analysis of the deposited data

How the results depend on the processing

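The log2 fold change of RBM12 ran from -0.30 to -0.16 and did not pass FDR 0.05 in 20 of 20 alternatives. These were the replicate block, another scaling (TMM, or total reads), no filter or one on 3 samples, a pseudocount of 0.5 or 5, edgeR and DESeq2 with and without the block, each replicate left out, and the block without each pair. The last was chosen after seeing the data. Where a replicate or a pair was left out the sign of RBM12 could not turn, since its groups did not overlap.

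The replicate block changed the counts most. Past FDR 0.05 there were 3 genes without it, 885 with it in limma and 977 in edgeR, while DESeq2 had 21 without and 143 with it. The blocked limma fit had 531, 665 and 456 without pair 1, 2 and 3. Leaving out 1 replicate gave 2 to 67 genes. In the family the block gave 1 call in limma and 1 in edgeR, none under the other 18 alternatives. In the partner lists it gave 4 in limma, 7 in edgeR, 2 without pair 2 and 1 without pair 3. Among the named members and partners the limma block changed the calls of RBM8A, SMG1, UPF3B, YTHDC1 and MTREX and no other.

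The family median moved to -0.026 with the block and without pair 2, and ran from -0.053 to -0.0020 with 1 replicate left out. RBM12B ran from -0.14 to 0.021 with 1 replicate left out, reversing without isoproterenol replicate 3, and reversed to 0.00055 with the block and without pair 3. RBM12 ranked 31 of 35 per kilobase of its longest transcript, and 25 by exon bases not shared with another gene on its strand, a length added after seeing the data. The causes were not tested. Reads of 9 to 36 per sample limit RBM34, RBM8B and RBM44, and 3 samples a group limit all small changes. Intervals cover the spread between these samples only.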
